A study of Zea mays with 64 samples.

Results

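The Mu insertion sites described here are the rows of the count table that were counted in most libraries. They were chosen by their counts: a row had to have a count above 0 in 40 or more of the 64 libraries, and rows at 500 or more CPM (counts per 1000000 counts of the library) in only 1, 2 or 3 of the 4 father libraries were left out. Of 1091553 rows, 41 were counted in 40 or more libraries, 2 of these were left out, and 39 sites remained. A site was placed in the high class where its mean over the progeny libraries of each of the 4 families was 1000 CPM or more, and in the low class otherwise. This gave 31 high sites, named H1 to H31, and 8 low sites, named L1 to L8, each numbered from the highest to the lowest mean CPM over the 60 progeny libraries. Because presence and level chose these sites, their presence and their levels by family and in the fathers are descriptions with no test.

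The libraries were made by MuSeq2 from maize of the inbred W22. Leaf and endosperm of 30 plants were sampled, together with endosperm of the 4 Mu-active fathers, and every plant came from a cross in which bulked pollen of a Mu-active W22 father was put on the ear of a Mu-inactive W22 plant. Leaves were taken 10 to 13 days after sowing, and endosperm was chipped from the seed that gave the plant. The fathers were ND66-2 for family NE71, ND67-51 for NE72, ND67-40 for NE73 and ND67-35 for NE74. There were 8 plants each in families NE71 and NE74 and 7 each in NE72 and NE73, and each father gave 1 library, so nothing shows how much a father library would vary. Library totals ran from 25037 to 687094 counts in leaf, from 5457 to 105320 in progeny endosperm and from 273277 to 610687 in the fathers. Leaf DNA came from column kits and endosperm DNA from a CTAB extraction, per the labels' protocols. Tissue and extraction therefore cannot be told apart. Leaf libraries were also the deeper ones in 28 of 30 plants, the exceptions being plants 2 and 4 of NE73, and the shares are therefore given at matched depth as well.

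Mu elements are DNA transposons that move by a cut-and-paste reaction when the autonomous element MuDR is active. The transposase they use duplicates 9 bp of the target at each new insertion, and in MuSeq2 the genomic sequence beside the Mu ends is amplified from sheared DNA. An insertion that is homozygous in a parent is passed to all progeny, whereas a new somatic insertion is carried by a few cells only. Endosperm receives more copies of a maternal than of a paternal allele, while the leaf receives the same number from each parent.

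The spans of the sites fell into separate classes. Of all rows, 99.9943% spanned 9 bp with both ends counted, and 25 rows spanned 100 bp or more. Of the 31 high sites, 19 were wide, from 890 to 7196 bp with a median of 1832 bp, 11 spanned 9 bp, and 1, H22, spanned 66 bp. L1 was the only wide low site, at 4772 bp, and the other 7 low sites spanned 9 bp. The sites counted in most libraries thus included 20 of the 25 wide rows of the table. In all 20 of them the first coordinate was the smaller, and in all 18 sites of 9 bp the first coordinate was the larger.

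The widest was H10 on chromosome 6, from 113180738 to 113187933, which spans 7196 bp. H23 on chromosome 2, from 203236315 to 203241180, spanned 4866 bp, and H9 on chromosome 1, from 272293892 to 272298698, spanned 4807 bp. H10 averaged 15414 ± 5699 CPM in leaf and 19703 ± 5721 CPM in endosperm, H23 averaged 11439.8 ± 3201 CPM in leaf and 14412 ± 2949 CPM in endosperm, and H9 averaged 13997 ± 4197 CPM in leaf and 21916 ± 4986 CPM in endosperm (SD, n = 30 each). Coordinates are those of the deposited table, whose genome build is not given in the sources used here, and the overlap of the sites with genes was not analysed here. The high sites lay on all 10 chromosomes. Chromosome 2 held 8 of them, and chromosomes 1, 8 and 9 held 4 each. Of all rows, 12.1% lay on chromosome 2, 16.9% on chromosome 1, 8.07% on chromosome 8 and 6.98% on chromosome 9. High sites were far apart, with a median distance of 26.5 Mb to the nearest other high site of the same chromosome and a smallest distance of 3.48 Mb, between H1 and H7.

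In the authors' deposited table of transmitted insertions, 30 of the 31 high sites were listed, and all 29 insertions called in the Mu-inactive parent were among them. Per the authors' deposited table, H30 was called in all 4 fathers and all 30 plants but not in the Mu-inactive parent. H31 was not in the list, although it was counted in 63 libraries. H22 was called in 28 of the 30 plants in the authors' deposited table, the exceptions being plants 1 and 2 of NE74. All 8 low sites were outside the list.

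Presence was nearly complete for the high sites. Of the high sites, 29 were counted in all 64 libraries, and H22 and H31 in 63. L1 was counted in all 64 libraries, whereas L2 to L8 were counted in 40 to 45. The gap between the classes was narrow only at H31 and L1. Just inside the 1000 CPM threshold, H31 had a lowest family mean of 1278 CPM, and just outside it, L1 had a lowest family mean of 563 CPM. At the next high site, H30, the lowest family mean was 3740 CPM.

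At 12 of the 31 high sites every count in all 64 libraries was an even number or 0. These sites were H1, H2, H3, H9, H14, H16, H17, H19, H24, H27, H29 and H31, 6 of them wide and 6 of 9 bp. At the other 19 high sites between 24 and 39 of the 64 counts were even. In the whole table, 311 rows were counted in 10 or more libraries with 200 or more counts in all, and 72 of these had only even counts, including both rows left out by the father criterion. How the counting gave even numbers is not given in the sources used here. The median of the mean CPM was 15699 at the 12 sites and 16132 at the other 19. With the counts of all such rows halved the medians were 8983 and 18391 CPM, so the order of levels between these sites is uncertain by that factor. Differences between tissues at a single site do not depend on it other than through the library totals.

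The endosperm libraries of 2 plants were closer to the fathers than to the other progeny endosperm in their profile over the high sites. Their columns stand beside those of the fathers in the deposited table. The endosperm library of NE71 plant 5 had a Pearson correlation of 0.90 with the mean father profile and 0.86 with the mean of the other endosperm libraries, on log2(CPM + 1) over 31 sites. For NE74 plant 2 these values were 0.83 and 0.71. The other 28 were each closer to the progeny endosperm mean, and all 4 father libraries were closer to the fathers. The lowest of the 28 was NE74 plant 1, at 0.28 with the fathers and 0.41 with the other endosperm. NE74 plant 5 at 0.748 and NE72 plant 3 at 0.848, among others, were also below NE71 plant 5 in their correlation with the other endosperm. These correlations are over sites that share libraries, and they carry no p. On this log scale a single site near 0 can weigh heavily in r. The endosperm of NE74 plant 1 had 1 count at H22, and that of NE74 plant 2 had 5 counts at H22 and 0 at H31. How far these sites set the values of both plants was not tested. In a further endosperm library, that of NE74 plant 7, 2.21% of counts fell on rows marked by the NE71 father alone and 11.2% on rows marked by the NE74 father alone. The other 7 endosperm libraries of NE74 had at most 0.00567% on rows of the NE71 father. Only progeny libraries of NE74 were examined for this. Without NE74 plant 7, the share difference given further on was -14.7 percentage points, and 30 high sites were called between tissues. Over all 34 rows tested, 1 was then called higher and 32 lower in leaf.

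The mean level of a high site over the 60 progeny libraries had a median of 15978 CPM over the 31 sites and ran from 1543 CPM at H31 to 21186 CPM at H1. Means over 30 libraries per tissue are drawn in the plot of levels by site.

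**Figure D1:**
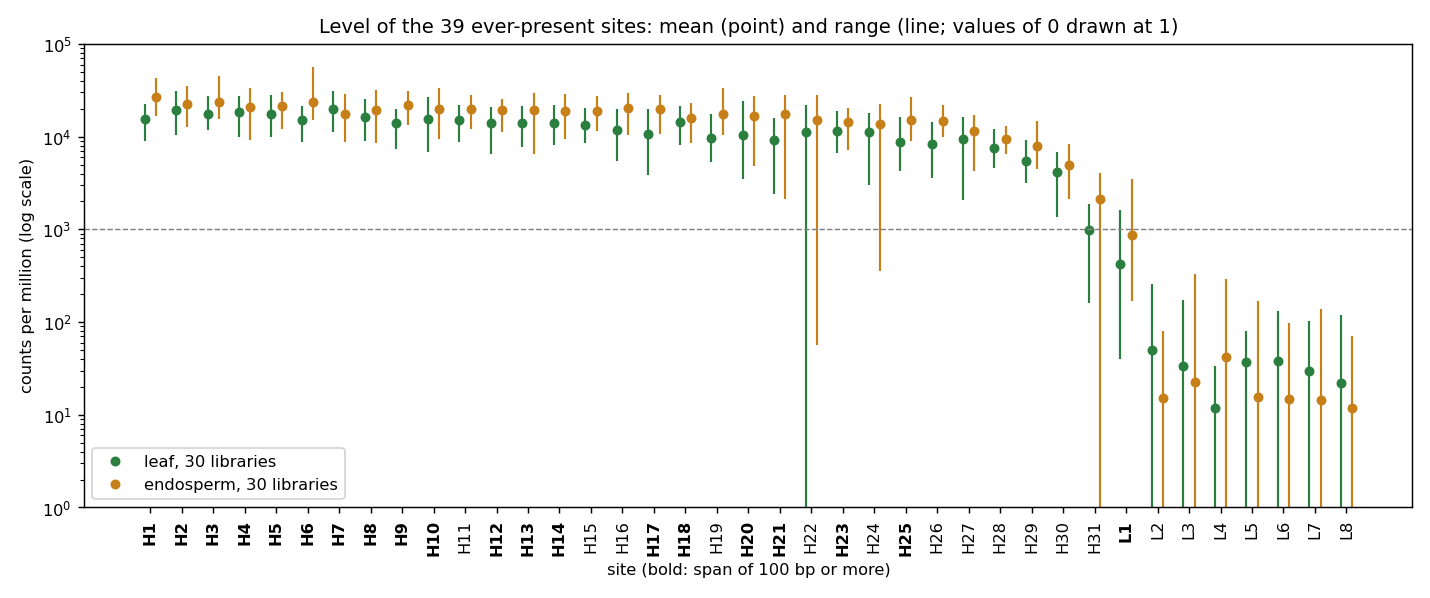
Level of each of the 39 sites in CPM (log axis) in 30 leaf and 30 endosperm libraries; points are means, lines run from the lowest to the highest library, values of 0 are drawn at 1, and the dashed line marks 1000 CPM. H1 to H30 lie above the line in the mean of both tissues, H31 has a leaf mean of 984 CPM and an endosperm mean of 2101 CPM, and L2 to L8 lie at means of 11.7 to 49.6 CPM.

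H1 on chromosome 2, from 142959280 to 142961386, had 8978, 14656 and 22610 CPM as the lowest, median and highest leaf value, against 16711, 27733 and 42514 CPM in endosperm. H2 on chromosome 9, from 94045110 to 94046981, had 10385, 20079 and 31456 CPM in leaf, against 12779, 21210 and 35356 CPM in endosperm. H3, also on chromosome 9, from 149235004 to 149236775, had 11815, 16739 and 27160.3 CPM in leaf, against 15464, 22356 and 45138 CPM in endosperm. The leaf and endosperm ranges overlapped at each of these sites.

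H4 on chromosome 1, from 20953342 to 20955151, averaged 18361 ± 5484 CPM in leaf and 20869 ± 7140 CPM in endosperm (SD, n = 30 each). H5 on chromosome 2, from 73902765 to 73904517, averaged 17537 ± 5389 CPM in leaf and 21663 ± 5300.4 CPM in endosperm (SD, n = 30 each). These 5 sites were all wide. The 3 sites with the lowest means all spanned 9 bp.

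H29 on chromosome 2, from 180947394 to 180947386 in the order of the file, averaged 5491 ± 1384 CPM in leaf and 7921 ± 2528 CPM in endosperm (SD, n = 30 each). H30 on chromosome 9, from 11958567 to 11958559, averaged 4115 ± 1234 CPM in leaf and 4995 ± 1351 CPM in endosperm (SD, n = 30 each). H31 on chromosome 8, from 160333767 to 160333759, averaged 984 ± 406 CPM in leaf and 2101 ± 842 CPM in endosperm (SD, n = 30 each). Neighbours in the order of the 31 means differed by more than the larger of their SDs in only 2 of 30 pairs in leaf and 2 of 30 in endosperm. These SDs are between single libraries and include the share of the whole class, which all sites of a library have in common. They therefore do not measure how well the order of the means is resolved, and the order was not tested.

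Wide sites had the higher levels. The 19 wide sites had a median of their mean levels of 14354 CPM in leaf and 19436 CPM in endosperm, and the 11 sites of 9 bp had 9535 CPM in leaf and 13868 CPM in endosperm. The classes overlapped, since wide sites ranged from 8806 to 20107 CPM and 9 bp sites from 984 to 15067 CPM in leaf. Wide sites held 71.8% ± 1.5 of the counts at high sites in leaf and 70.5% ± 1.8 in endosperm (SD, n = 30 each). As the members were chosen by level, no test is given for this difference between widths.

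The immediate surroundings of the high sites held few counts. Within 20 bp of either end, wide sites had a median of 8 further rows and at most 47, and 9 bp sites a median of 4 and at most 40. The counts at those further rows came to a median of 0.00867% of the site's own counts at wide sites and 0.00762% at 9 bp sites, and to 0.577% at most, at H30.

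The first comparison of tissues asked what share of a library's counts fell on the high sites. In leaf this share was 21.6% at the lowest, 39.4% at the median and 57.6% at the highest, against 37.5%, 54.8% and 72.2% in endosperm. The mean was 38.5% ± 11.4 in leaf and 53.1% ± 11.2 in endosperm (SD, n = 30 each). All 30 plants had the lower share in leaf, and the paired difference was -14.7 ± 3.5 percentage points (SD, n = 30 plants). By a sign-flip permutation test over plants, two-sided, p was 1e-05, the smallest that 100000 resamples can give. When both libraries of a plant were brought to the same total the difference was -14.7 percentage points as well, and it was -14.8 without NE71 plant 5 and NE74 plant 2 (permutation p = 1e-05 for both).

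The lower share in leaf was found in each family. In NE71 it was 49.0% ± 5.2 in leaf and 61.8% ± 3.4 in endosperm (SD, n = 8 plants). NE72 had 24.7% ± 2.4 in leaf and 40.9% ± 3.0 in endosperm (SD, n = 7 plants). NE73 had 48.6% ± 3.9 in leaf and 64.9% ± 5.3 in endosperm (SD, n = 7 plants), and NE74 had 30.99% ± 3.23 in leaf and 44.8% ± 4.1 in endosperm (SD, n = 8 plants). The exact sign-flip p was 0.00781 in NE71 and NE74 and 0.0156 in NE72 and NE73, the smallest these family sizes allow, and 0.0156 in all after adjustment over the 4 families. The difference between tissues did not pass the test for a difference between families (permutation of family labels, p = 0.123, adjusted over 3 measures 0.148).

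**Figure D2:**
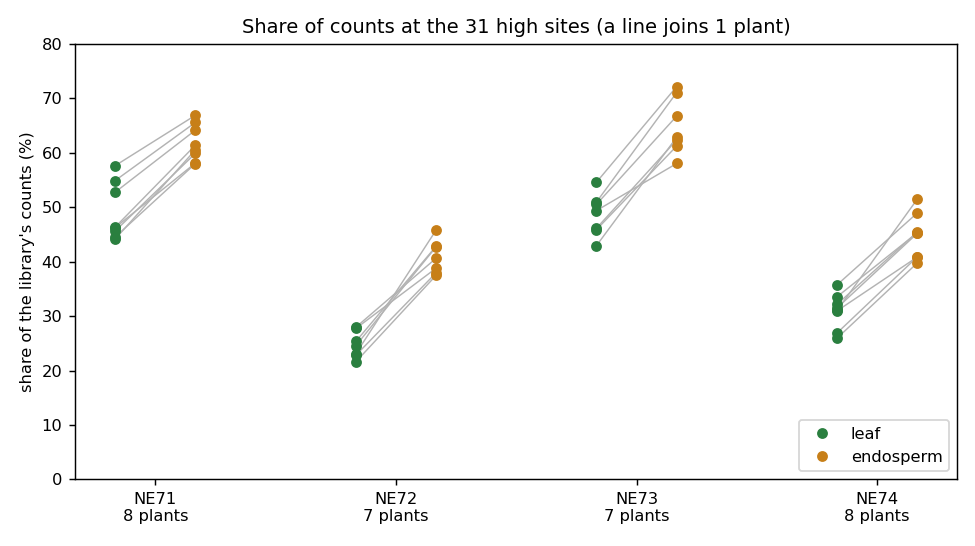
Share of each library's counts, in percent, at the 31 high sites, for leaf (green) and endosperm (orange) of each plant by family; a line joins the libraries of 1 plant. All 30 lines run upward from leaf to endosperm, and NE72 and NE74 lie below NE71 and NE73 in both tissues.

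In both tissues the means of NE71 and NE73 were above those of NE72 and NE74, with NE71 the highest in leaf and NE73 the highest in endosperm. In the authors' deposited table plants carried on average 120 listed insertions in NE72 and 107 in NE74, beside 69.9 in NE73 and 63.8 in NE71. In the 4 father libraries the share was 46.2% in the father of NE71, 38.2% in that of NE72, 52.6% in that of NE73 and 32.6% in that of NE74. The part of these family differences that rests on the number of other insertions was not tested.

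Shares within a library trade off against each other, so the high sites were also set against the father-specific sites, which are the 180 rows at 500 or more CPM in 1 to 3 father libraries. The father-specific share was 18.9% ± 6.5 in leaf and 18.03% ± 6.43 in endosperm (SD, n = 30 each), and 41.2% ± 6.2 in the fathers (SD, n = 4). As these rows were chosen by their level in the father libraries, the choice favours a high share there. All rows in neither class held 42.6% ± 12.6 in leaf and 28.8% ± 12.03 in endosperm (SD, n = 30 each). The ratio of high to father-specific counts was 1.07 at the lowest, 1.75 at the median and 6.64 at the highest in leaf, against 1.46, 2.70 and 8.69 in endosperm. On the log2 scale leaf minus endosperm was -0.58 ± 0.18 (SD, n = 30 plants), with leaf lower in each of the 30 plants (sign-flip permutation, two-sided, p = 1e-05, the smallest it can give), and it was -0.58 without NE71 plant 5 and NE74 plant 2 as well. The family means of this log2 difference ran from -0.69 in NE72 over -0.62 in NE74 and -0.52 in NE71 to -0.47 in NE73, and families did not pass the test for a difference (permutation p = 0.0706, adjusted 0.148).

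Site by site, leaf was then compared with endosperm by edgeR's quasi-likelihood test with the plant as block and the library totals as normalization. Rows with 10 or more counts in 30 or more progeny libraries were tested, and these were 34 rows: the 31 high sites, L1 and the 2 rows left out by the father criterion. Of the 31 high sites, 29 were lower and 1, H7, was higher in leaf at an adjusted p below 0.05. Over all rows tested, 94.1% were called lower and 2.94% higher in leaf, and nearly all rows tested are members, so this background is not independent of them. The median log2 difference over the 31 sites was -0.45, beside -0.47 over all 34 rows. H24, the high site not called, had a log2 difference of -0.32 ± 0.16 (SE; edgeR adjusted p = 0.0531). Without NE71 plant 5 and NE74 plant 2 all 31 were called, 30 lower and 1 higher, beside 33 lower and 1 higher over all 34 rows.

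These differences are on the scale of library totals and carry the shift of the whole class. With TMM factors, which centre the tested rows, the median log2 difference over all 34 rows was 0.03, and 10 high sites were called higher and 10 lower in leaf. Over all 34 rows, 10 were called higher and 12 lower. DESeq2 with its own size factors gave the same splits, 10 and 10 of the high sites and 10 and 12 of all rows. H7 was called higher on all 3 scalings. Of the 10 sites called higher with TMM factors, H2, H4, H5, H8, H18, H23, H27, H28 and H30 were called lower on library totals.

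**Figure D3:**
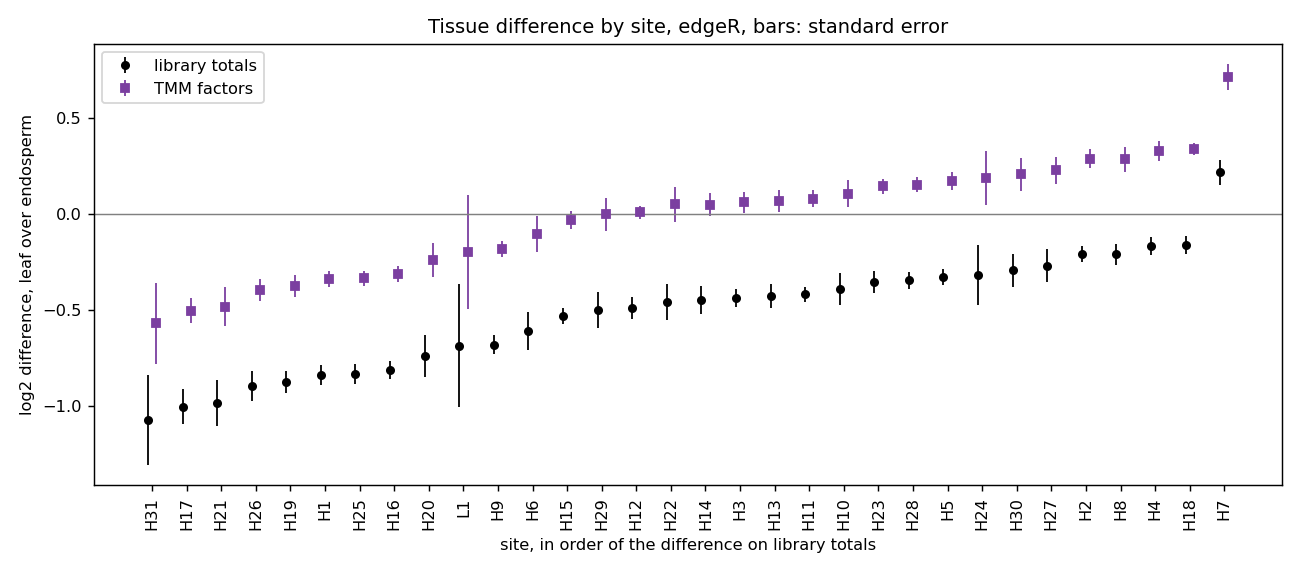
Log2 difference, leaf over endosperm, for the 31 high sites and L1, fitted by edgeR with library totals (black circles) and with TMM factors (purple squares); bars are standard errors. On library totals all but H7 lie below 0, from -1.07 at H31 to -0.16 at H18, whereas with TMM factors the sites spread on both sides of 0.

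The largest differences toward endosperm were at H31, H17 and H21. H31 had 160, 952 and 1864 CPM as the lowest, median and highest leaf value, against 0, 2132 and 4032 CPM in endosperm. Its log2 difference was -1.07 ± 0.23 (SE; edgeR adjusted p = 7.48e-05), and -0.57 ± 0.21 with TMM factors (adjusted p = 0.0177). The 0 was in the endosperm library of NE74 plant 2, which had 44666 counts in all (exact 95% upper bound 82.6 CPM, and 67.2 CPM at 3 counts).

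H17 is a wide site on chromosome 1, from 104590546 to 104591797. It had 3834, 9585 and 19994 CPM in leaf, against 10738, 20299 and 28221 CPM in endosperm, and its log2 difference was -1.001 ± 0.090 (SE; edgeR adjusted p = 3.37e-12). H21 is a wide site on chromosome 10, from 133146086 to 133147581. It had 2396, 7730.2 and 16043 CPM in leaf, against 2149, 16041 and 28075 CPM in endosperm, with a log2 difference of -0.98 ± 0.12 (SE; edgeR adjusted p = 5.65e-09). Both were also called lower with TMM factors, at -0.50 and -0.48. The lowest endosperm value of H21 was again in NE74 plant 2.

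H7 was the exception. This wide site on chromosome 2, from 146442692 to 146444522, had 11108, 18675 and 30831 CPM in leaf, against 8666, 16971 and 28602 CPM in endosperm. Its log2 difference was 0.22 ± 0.06 (SE; edgeR adjusted p = 0.00216) on library totals and 0.71 ± 0.07 with TMM factors (adjusted p = 6.35e-11). H7 had the highest mean of all sites in leaf, while H1, H3 and H6 had the highest in endosperm. Without the plant as block H7 no longer passed the threshold.

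Variation among plants of a family was small at most high sites. Each site was expressed as a relative level, its CPM divided by the median CPM of the other 30 high sites of the same library, which removes the share of the whole class. The SD of the log2 relative level within families had a median over sites of 0.14 in leaf and 0.28 in endosperm, and it was larger in endosperm at 29 of 31 sites. Counting error alone gave a median SD of 0.03 in leaf and 0.07 in endosperm. H22 had the largest spread, with an SD of 1.54 in leaf and 1.44 in endosperm.

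H22 lies on chromosome 3, from 122342380 to 122342445, and its 66 bp span was unlike that of any other member. Its relative level in leaf fell into 3 ranges with nothing between them. The leaves of 2 plants were near 0, 11 lay between 0.507 and 0.609, and 17 between 1.06 and 1.33. Nothing here fixes a number of copies of the insertion, which the data do not measure directly.

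In NE71, the leaves of plants 1, 6 and 7 were at 0.509, 0.571 and 0.609, and the other 5 were between 1.06 and 1.33. In endosperm the same 3 plants were again the lowest, at 0.474, 0.343 and 0.368, and the other 5 were between 0.927 and 1.32. The ranges were separate in both tissues.

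In NE73, the leaves of plants 1, 4, 7 and 9 were at 0.509, 0.538, 0.596 and 0.507, and the other 3 were between 1.199 and 1.243. Their endosperm was at 0.856, 0.736, 0.632 and 0.698, and the other 3 were between 1.06 and 1.15. The lower plants were again the same in both tissues. Their endosperm values were above their leaf values in NE73, whereas in NE71 the endosperm values of the lower plants were below their leaf values.

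In NE74, plants 1 and 2 had 1 and 0 counts in leaf, or 3.30 CPM in plant 1 (exact 95% interval 0.0835 to 18.4) and 0 CPM in plant 2 (exact 95% upper bound 9.29, and 7.55 at 3 counts). Their endosperm had 1 and 5 counts, or 56.7 CPM (exact 95% interval 1.44 to 316) and 112 CPM (36.3 to 261). Plants 5, 6, 7 and 8 had relative levels of 0.520, 0.567, 0.534 and 0.556 in leaf and 0.626, 0.778, 0.538 and 0.718 in endosperm. The endosperm library of plant 7 is the one with 2.21% of counts on rows of the NE71 father. Plants 3 and 4 were at 1.09 and 1.14 in leaf and at 1.08 and 1.12 in endosperm. Plants 3 to 8 were thus apart from plants 1 and 2 in both tissues.

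In NE72 the 7 leaves lay between 1.10 and 1.23 and the endosperm between 0.831 and 1.16, with no wide gap in either. The father libraries were at 1.19 for NE71, 1.13 for NE72, 0.838 for NE73 and 0.702 for NE74. Because the values fall into separate ranges, no correlation coefficient is given for H22.

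**Figure D4:**
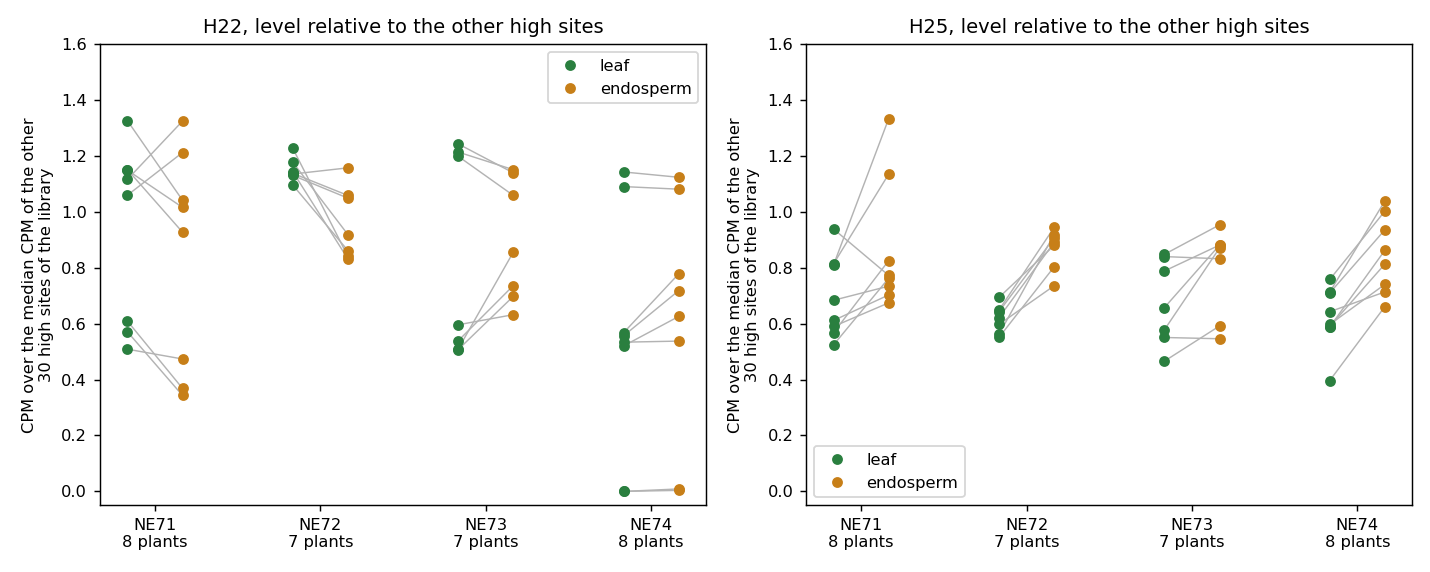
Relative level (CPM over the median CPM of the other 30 high sites of the library) of H22, left panel, and H25, right panel, in leaf (green) and endosperm (orange) by family; a line joins the libraries of 1 plant. H22 has leaf values near 0, from 0.507 to 0.609 and from 1.06 to 1.33, and in NE71, NE73 and NE74 the plants low in leaf are also the low ones in endosperm; H25 varies from 0.396 to 0.938 in leaf, with the lowest value in NE74 plant 7.

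Leaf and endosperm of a plant were extracted apart, so a deviation that both share is a repeat measurement of the plant. For each high site, deviations of log2(CPM + 1) from the mean of family and tissue were correlated over the 30 plants, with plants permuted within families and p-values adjusted over 31 sites. Besides H22, which is described by its ranges, H15, H16, H19, H25 and H28 had a positive Pearson correlation at an adjusted p below 0.05, which makes 6 sites, and 7 sites did without NE71 plant 5 and NE74 plant 2. The median r over the 31 sites was 0.32, and 26 were above 0. With the ratio to the summed counts of the high sites in place of CPM, only H25 passed by Pearson's r, and the median r was 0.00. By Spearman's rho 2 sites passed on that ratio, H22 and H25. For H22 the adjusted permutation p on the ratio was 0.0564 by Pearson's r and 0.00062 by Spearman's rho.

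H25, a wide site on chromosome 3 from 175620033 to 175621592, had relative levels of 0.396, 0.632 and 0.938 as the lowest, median and highest in leaf, against 0.546, 0.847 and 1.33 in endosperm. The correlation of the tissues was r = 0.80 and Spearman's rho = 0.81 (n = 30 plants; permutation p = 1e-05 for each, the smallest it can give, adjusted 0.00031 and 0.000155). Without the 2 plants farthest from the median in leaf r was 0.78. On the ratio to the summed high-site counts r was 0.70 and rho 0.70 (permutation p = 0.00019 and 0.0001, adjusted 0.00589 and 0.00155).

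H28, a 9 bp site on chromosome 8 from 3470744 to 3470736, had r = 0.58 and rho = 0.61 in CPM (n = 30 plants; permutation p = 0.00116 and 0.00053, adjusted 0.0119 and 0.0045, r without the 2 farthest plants 0.58). On the ratio to the summed high-site counts its r was -0.37 and rho -0.45 (permutation p = 0.0263 and 0.0115, adjusted 0.272 and 0.0895). The relation at H28 therefore did not hold once the share of the whole class was taken out, and the same applied to H15, H16 and H19.

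H30 had 1 plant apart from its family in leaf. In NE74 plant 6 its relative level was 0.121 in leaf, against 0.319 to 0.389 in the other 7 leaves of the family. The endosperm of the same plant was at 0.149, the lowest of the family, where the others ran from 0.217 to 0.669. These values rest on 303 counts in leaf and 114 in endosperm.

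The father libraries had their own profile over the high sites. At H20, H21, H24 and H31, all 4 father libraries and both endosperm libraries that stood apart were below all 28 other progeny endosperm libraries. H20 had relative levels of 0.275 to 0.332 in the fathers and of 0.388 and 0.457 in the 2 libraries, against 0.737 to 1.33 in the other 28. H24 had 0.127 to 0.230 in the fathers and 0.0285 and 0.598 in the 2 libraries, against 0.667 to 1.57 in the other 28.

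Other sites were higher in the fathers. H3, H15 and H30 were above all 28 other endosperm libraries in each of the 4 fathers, and at H3 and H15 the 2 libraries were above them as well. H3 had relative levels of 1.70 to 2.61 in the fathers and 2.26 and 2.53 in the 2 libraries, against 1.03 to 1.64 in the other 28. H30, the site without a call in the Mu-inactive parent in the authors' deposited table, had 0.449 to 1.08 in the fathers and 0.384 and 0.669 in the 2 libraries, against 0.149 to 0.445 in the other 28. At H6 the 2 libraries, at 2.72 and 4.84, were above all others, with fathers at 1.57 to 2.28 and the other 28 at 0.834 to 2.58.

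**Figure D5:**
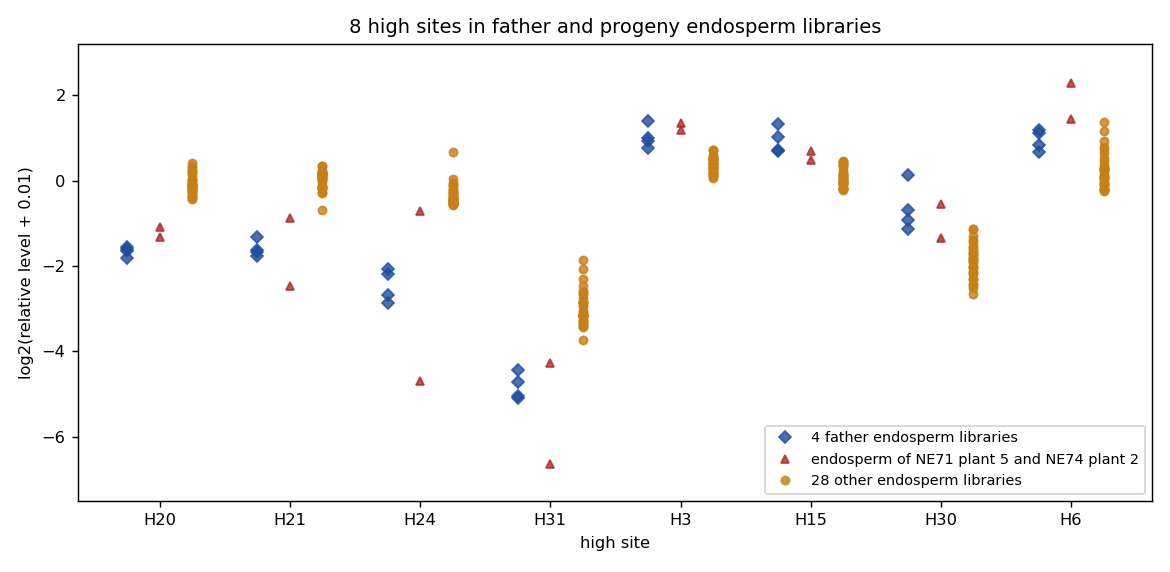
Log2 of the relative level plus 0.01 at 8 high sites in the 4 father libraries (blue diamonds), the endosperm libraries of NE71 plant 5 and NE74 plant 2 (red triangles) and the 28 other progeny endosperm libraries (orange circles). At H20, H21, H24 and H31 the diamonds and triangles lie below every circle, and at H3 and H15 above every circle.

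The low sites were L1 and a group near the limit of detection. L1, on chromosome 2 from 78235838 to 78240609, had 39.9, 391 and 1626 CPM as the lowest, median and highest leaf value, against 167, 485 and 3482 CPM in endosperm, and 424, 133, 392 and 52.8 CPM in the fathers of NE71 to NE74. It was the only low site that passed the count filter of the edgeR fit. Its log2 difference was -0.68 ± 0.32 (SE; edgeR adjusted p = 0.0416), and it did not pass with TMM factors, at -0.20 ± 0.30 (adjusted p = 0.56), nor without NE71, NE72 or NE74.

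L2 to L8 averaged 11.7 to 49.6 CPM in leaf and 11.9 to 41.8 CPM in endosperm. These 7 sites had a count above 0 in 192 of 210 site and library combinations in leaf and in 81 of 210 in endosperm, with no count above 67 in leaf or above 7 in endosperm. The endosperm libraries are the shallower ones: 3 counts amounted to 28.5 CPM in the deepest of them and 549.8 CPM in the shallowest. Of the 8 low sites, 7.4 ± 1.2 were counted per leaf library and 3.7 ± 1.9 per endosperm library, and 4.6 ± 1.8 in leaf at matched depth against 3.7 ± 1.9 in endosperm (SD, n = 30 each).

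L2 on chromosome 6, from 166313671 to 166313663, had 411 counts over 30 leaf libraries and 19 over 30 endosperm libraries, or 51.1 and 14.8 CPM of the pooled totals. L3 on chromosome 1, from 218464797 to 218464789, had 273 and 18 counts, or 33.9 CPM in leaf and 14.0 CPM in endosperm. L5 on chromosome 5, from 179239374 to 179239366, had 306 and 16 counts, or 38.0 CPM in leaf and 12.5 CPM in endosperm. These sites had more CPM in leaf than in endosperm, as did L6, L7 and L8.

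Of the low sites, 2 lay within 20 bp of a high site, and whether they are separate insertions was not tested. L4 on chromosome 1, from 20955162 to 20955154, begins 3 bp beyond the end of H4, and it had 111 counts in leaf and 44 in endosperm, or 13.8 CPM in leaf and 34.3 CPM in endosperm. L6 on chromosome 2, from 47365712 to 47365704, overlaps H16, whose coordinates are 47365715 to 47365707. L4 was the only one of the 7 with more CPM in endosperm.

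As a share of all counts the low sites held 0.0651% ± 0.0290 in leaf and 0.101% ± 0.096 in endosperm (SD, n = 30 each). The paired difference of -0.0362 ± 0.106 percentage points (SD, n = 30 plants) did not pass the test (sign-flip permutation, two-sided, p = 0.0722), with leaf lower in 17 of 30 plants, and it was -0.0401 without NE71 plant 5 and NE74 plant 2 (p = 0.0622). At matched depth with all 8 sites it was -0.0398 (permutation p = 0.0509). Without L1 the difference was 0.00859 percentage points. L2 to L8 met the presence criterion with 23 to 29 leaf and 9 to 18 endosperm libraries each, so their higher level in leaf was favoured by the way they were chosen, and no test is given for it. The summed share of the low sites includes L2 to L8. Its p-values therefore cannot decide whether the low class differs between tissues, and no conclusion is drawn from them.

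Counting error for 1 library's value, as the distance from the centre of the exact 95% binomial interval to its ends, had a median over the high sites of 3.65% of the value in leaf, 8.04% in progeny endosperm and 2.59% in the fathers. Molecular identifiers are not described in the sources used here, so intervals and floors cover counting error only. At the 12 high sites with even counts only, H31 among them, intervals, floors and counting SDs take each count as independent, which was not tested. If counts there come in pairs, these measures are too narrow.

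The 2 rows left out by the father criterion were also counted in all 64 libraries. One spans 9 bp on chromosome 1, from 18957410 to 18957402, and had 790.4, 278, 773 and 178 CPM in the fathers of NE71 to NE74. The other, a wide row on chromosome 8 from 44857168 to 44858977, had 490.3, 288, 753 and 132 CPM in them. In progeny the 9 bp row averaged 742 ± 548 CPM in leaf and 2674 ± 2249 CPM in endosperm, and the wide row 1362 ± 754 CPM in leaf and 3374 ± 2169 CPM in endosperm (SD, n = 30 each). Both would pass as members if counts at rows with even counts only were halved.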

How the data were processed

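MuSeq2 libraries of 30 leaf and 30 endosperm samples and 4 father endosperm samples were grouped by their titles, and plants pair the tissues because both come from 1 seed. Raw counts per site and library were deposited, together with a list by the authors of 0 or 1 calls per plant and parent. Bowtie2 is named in the submitters' processing notes, and its version, the genome build and the counting unit are not given in the sources used here. CPM is the count over the library total times 1000000. The members and lists were chosen with earlier results of these data known. Tests were sign-flip permutation over plants, permuted correlations within families, and edgeR 4.0.16 with library totals, plant as block and Benjamini-Hochberg adjustment over 34 rows. DESeq2 1.42.0 and TMM were alternatives. Sites named in the text were those with the 5 highest and 3 lowest means, the 3 largest called tissue differences each way, the 3 highest correlations and the 3 widest, with the corresponding low sites and those beside the threshold. H6, H15, H16, H18, H19, H20, H24 and H30 and the even counts were singled out after their values were seen. The statistics were tested on simulated data.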

Additional observations from a re-analysis of the deposited data

Results flagged for a closer look

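In 48 groups of 7 or 8 plants of 1 family and tissue, 6 had a plant far from the others by Dixon's criterion. Relative levels of H22, H25 and H30 were among the groups, and these sites were picked from these same data. The 6 are therefore not set against a chance rate. In endosperm, the log2 ratio of high to father-specific counts was 0.77 in NE73 plant 9, the lowest of 7. The low-site share of endosperm counts was 0.348% in NE71 plant 8, 0.209% in NE73 plant 7 and 0.199% in NE74 plant 1, each the highest of its family. These shares rest on few counts, nearly all at L1, which had 19, 19 and 33 counts in libraries of 5457, 9096 and 17631 counts. The relative level of H25 was 0.396 in the leaf of NE74 plant 7, and that of H30 was 0.121 in the leaf of NE74 plant 6, each the lowest of 8.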

How the results depend on the processing

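The share of counts at the high sites and their log2 ratio to the father-specific sites kept direction and stayed past the threshold in every setting run, between -15.3 and -14.2 percentage points and between -0.61 and -0.54. These settings included no replicate block (-14.7 percentage points, permutation p = 2e-05, and -0.58, p = 0.0031), depth matching, leaving out each family, leaving out NE74 plant 7, and, chosen after seeing the data, leaving out NE71 plant 5 and NE74 plant 2 (-14.8 and -0.58) and halving rows with even counts only (-14.4 and -0.56). The low-site share turned to 0.00859 percentage points with a high class at 500 CPM, which moves L1 out of the low class, and likewise without L1. It passed the threshold at -0.148 with a high class at 2000 CPM (permutation p = 1e-05), a setting that moves H31 into the low class. H31 had means of 984 CPM in leaf and 2101 CPM in endosperm, so that value is not of L1 to L8 alone. The low-site share also passed at -0.0448 with 60 or more libraries required (permutation p = 0.0237) and at -0.0539 without NE73 (permutation p = 0.0159). Requiring 60 libraries left 1 low site. In the other settings the low-site share includes L2 to L8, whose choice favours leaf, so its p-values there cannot decide between the tissues. The number of high sites called between tissues ran from 20 to 31. Without the replicate block it was 23, with 0 higher and 23 lower in leaf, beside 0 higher and 26 lower over all 34 rows. L1 was the 1 low site called. That number was 0 with TMM, with DESeq2 and without NE71, NE72 or NE74. With rows counted in 30 or more progeny libraries, 86 rows were tested, and 23 were called higher and 34 lower in leaf. L2 to L8 each passed that filter with more leaf than endosperm libraries, which favours a higher level in leaf. Calls at low sites under that filter are therefore no test of their level and are not given. Sites correlated between tissues numbered 6, but on the ratio to the summed high-site counts 1 by Pearson's r and 2 by Spearman's rho, and 4 to 7 elsewhere. Halving rows with even counts gave 31 high and 10 low sites, with H31 (mean 884 CPM) in the low class and the wide left-out row in the high class. Where no cause is named, it was not tested. L2 to L8 had no count above 7 in any endosperm library, so differences at these sites rest on few counts.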
